A study of Mus musculus with 6 samples.

Results

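The RNA-binding proteins of the TTP, Roquin, Regnase, Staufen and HuR families set how long many lymphocyte mRNAs last, and their own mRNAs were followed here in B cell precursors with and without a Cre that deletes *Upf1*. The members were taken by symbol: *Zfp36*, *Zfp36l1* and *Zfp36l2* (TTP family), *Rc3h1* and *Rc3h2* (Roquin-1 and Roquin-2), *Zc3h12a* and *Zc3h12d* (Regnase-1 and Regnase-4), *Stau1* and *Stau2* (Staufen), and *Elavl1* (HuR). All 10 had a row among the 13426 genes measured. In these data *Zfp36*, *Zfp36l1*, *Zc3h12d* and *Elavl1* mRNA was lower, and *Zc3h12a* mRNA higher, in the libraries labelled cKO than in Ctrl, while the other 5 did not pass the test.

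As background, TTP and its relatives bind AU-rich elements in 3′ UTRs and recruit the CCR4-NOT deadenylase, and ZFP36L1 and ZFP36L2 are needed in B cell precursors for the quiescence in which immunoglobulin genes are joined. Roquin proteins bind short stem-loops and also recruit CCR4-NOT, whereas Regnase-1 is an endonuclease that cuts stem-loop mRNAs undergoing translation, a step that uses the helicase UPF1. Staufen proteins bind double-stranded 3′ UTR structures and recruit UPF1 in Staufen-mediated decay, and HuR binds AU-rich mRNAs and usually stabilizes them.

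The cells belonged to the early large pre-B stage (early LPre-B) and were sorted from mouse bone marrow as lineage-negative, sIgM-negative, CD2-negative large cells that carry B220 and CD43. Ctrl mice were Upf1 Flox/Flox with Mb1 +/+, and cKO mice were Upf1 Flox/Flox with Mb1 Cre/+, so both groups carried the floxed *Upf1* alleles and only the cKO mice carried a Cre, expressed from the B lineage gene *Cd79a* (Mb1). The mice were C57BL/6, age-matched, of both sexes and between 8 and 16 weeks old, and there were 3 libraries per group, described by the study as biological replicates. Ribosomal RNA was depleted, and reads were counted per gene without use of strand. A level below is a normalised read count, that is, reads plus 0.5 per 1e6 of an effective library size set by the authors.

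Whole reads behind the values totalled between 9732498 and 11006834 per library. The row of *Upf1* was not lower in the cKO-labelled libraries: it held 260, 203 and 259 normalised reads in Ctrl and 308, 283 and 300 in cKO-labelled libraries (log2 fold change 0.31, SE 0.089, limma adjusted p = 0.00696). The deletion removes internal exons, which a count over the whole gene does not resolve, so this row is no check of the labels. The groups are called by their labels, and every direction below rests on them. All 18 B lineage markers were in the table; 8 passed as higher and 5 as lower (median log2 fold change 0.05). Their summed level was between 4603 and 4781 in Ctrl and between 4005 and 4225 in cKO-labelled libraries, but without *Cd24a*, left out after seeing the data because it had the most reads and fell (log2 fold change -1.94, adjusted p = 5.97e-13), the sum was higher in the cKO-labelled libraries, between 3639 and 3892 against between 3226 and 3549 in Ctrl. *Cd79a*, 1 copy of which carries the Cre in cKO mice, was among the markers that fell (log2 fold change -1.58, adjusted p = 1.24e-11). Ctrl replicate 3 stood apart from the other Ctrl libraries, with a chi-square per degree of freedom of 18.98 and 22.02 against them, where Ctrl replicates 1 and 2 gave 8.36 and cKO-labelled pairs gave between 4.39 and 6.29. Summed levels of 13 myeloid markers were between 71.3 and 188 in Ctrl and between 398 and 548 in cKO-labelled libraries. Of these, 5 passed as higher, *Itgam* (CD11b) as lower (log2 fold change -0.42, adjusted p = 0.0199) and 7 did not pass; *Elane*, 1 of the 5, has a row only through its cKO-labelled libraries. Per the study's methods, CD11b, CD11c and F4/80 were in the lineage stain used to leave cells out of the sort. In Ctrl replicate 1 and the cKO-labelled libraries most of the sum came from the neutrophil granule genes *S100a8*, *S100a9*, *Ltf*, *Ngp* and *Camp*, which together gave 111 in Ctrl replicate 1, 7.53 and 8.99 in Ctrl replicates 2 and 3, and 306 to 432 in cKO-labelled libraries. Of 10 T and NK cell markers, *Cd3d*, *Cd3e*, *Cd3g*, *Cd4*, *Cd8a* and *Ncr1* had no row, and the other 4 summed to between 65.0 and 94.5 in Ctrl and between 29.3 and 32.1 in cKO-labelled libraries, most of it *Lck*, while the NK marker *Klrb1c* went the other way, from 0.478, 0.859 and 0.447 to 3.85, 2.75 and 2.99. A row needed a level over 0.5 in 3 libraries, which *Klrb1c* met only through the cKO-labelled ones, so its values are given with no test. Erythroid and megakaryocyte markers summed to at most 12.5 in any library. Dendritic and plasma cell markers summed to between 30.8 and 42.8 in Ctrl and between 15.2 and 20.7 in cKO-labelled libraries, most of it *Sdc1*. In these bulk libraries fewer cells of a type and less RNA per cell cannot be told apart. The marker genes named here were picked after their values were seen.

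The mRNAs of several of these proteins carry the sequences that the proteins themselves read. In the longest coding transcript linked to RefSeq (GENCODE M21, GRCm38), 6 of the 10 members held the AU-rich nonamer UUAUUUAUU in the 3′ UTR, which 7.3% of 11916 genes with such a transcript held. They were all 3 TTP genes, both Roquin genes and *Elavl1*. The sites are shown because they are what TTP and HuR bind; the nonamer is in capitals, and the same element in *Tnf*, the textbook target of TTP, is given for comparison.
Zfp36, chr7:28376952-28376978, minus strand: augacgacuUUAUUUAUUguauuaaga
Zfp36l1, chr12:80108168-80108194, minus strand: acuguuggaUUAUUUAUUuuagaaauu
Zfp36l2, chr17:84184915-84184941, minus strand: cuauuuaacUUAUUUAUUaucuuguga
Rc3h1, chr1:160970044-160970070, plus strand: cuuuacucaUUAUUUAUUgagaugagg
Rc3h2, chr2:37373288-37373314, minus strand: aaagacauuUUAUUUAUUuuacucugu
Elavl1, chr8:4285785-4285811, minus strand: gaaaauuauUUAUUUAUUuauuuauuu
Tnf, chr17:35199679-35199705, minus strand: auuuauuauUUAUUUAUUauuuauuua

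The shorter heptamer UAUUUAU, which lies inside the nonamer, occurred 3 times in *Zfp36*, *Zfp36l1*, *Zfp36l2* and *Rc3h2*, 2 times in *Rc3h1* and 8 times, mostly in overlapping copies, in *Elavl1*. No heptamer was found in *Zc3h12a*, *Zc3h12d*, *Stau1* or *Stau2*. At least 1 heptamer was found in 28.2% of genes and 3 or more in 3.5%, against 5 of the 10 members. Longer 3′ UTRs hold more of these letters: the median length was 750 bases for genes with no heptamer and 3243 bases for those with 3 or more. Over all genes it was 1037.5 bases, while *Rc3h1*, *Rc3h2* and *Elavl1* have 3′ UTRs of 7181, 5331 and 4218 bases. *Zfp36*, with 3 heptamers, has a 3′ UTR of 774 bases.

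Both Roquin mRNAs also held UUCUGUGAA, the stem with a UGU loop that is known from the Roquin target *Tnf*. This element was looked at after the first motif counts were seen. It occurred in 301 of the 11916 genes (2.5%), and counting base pairs outward from the loop (A-U, G-C or G-U) it sat in a stem of at least 6 pairs in 34 genes (0.3%), among them *Rc3h1*, *Rc3h2*, *Tnf* and *Nfkbid*. The sites are printed with UUCUGUGAA in capitals, so that the pairing flanks can be read outward from it.
Rc3h1, chr1:160968033-160968059, plus strand: uuguuuuugUUCUGUGAAugaacuuua
Rc3h1, chr1:160971654-160971680, plus strand: gccaauaacUUCUGUGAAguugccuuu
Rc3h2, chr2:37373803-37373829, minus strand: uuaauuaacUUCUGUGAAguuguuuac
Tnf, chr17:35199579-35199605, minus strand: agacauguuUUCUGUGAAaacggagcu
Nfkbid, chr7:30428396-30428422, plus strand: cuaggugauUUCUGUGAAaucgagccc
Nfkbid, chr7:30428424-30428450, plus strand: cuugauuguUUCUGUGAAacacucuag

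The stems had 7 pairs at each of these sites except the second *Nfkbid* site, which had 6. The first *Rc3h1* site lies 245 bases after the stop codon and the second 3866 bases after it. The looser form UUCNNNGAA was in 8 of the 10 members, *Zfp36* and *Zc3h12a* being without it, and in 34.2% of genes. A match is a description of letters and not a measured site.

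Of the 10 members, 1 passed an adjusted p of 0.05 as higher and 4 as lower in the cKO-labelled libraries, while 27.7% of all genes tested passed as higher and 25.0% as lower. The groups did not overlap for 8 members, 2 higher and 6 lower, against 30.9% of all genes higher and 28.0% lower. The members' median log2 fold change was -0.47, beside 0.01 over all genes. Because 1 was added to each level before taking log2, the fold changes of genes at low levels come out smaller than they are.

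**Figure D1:**
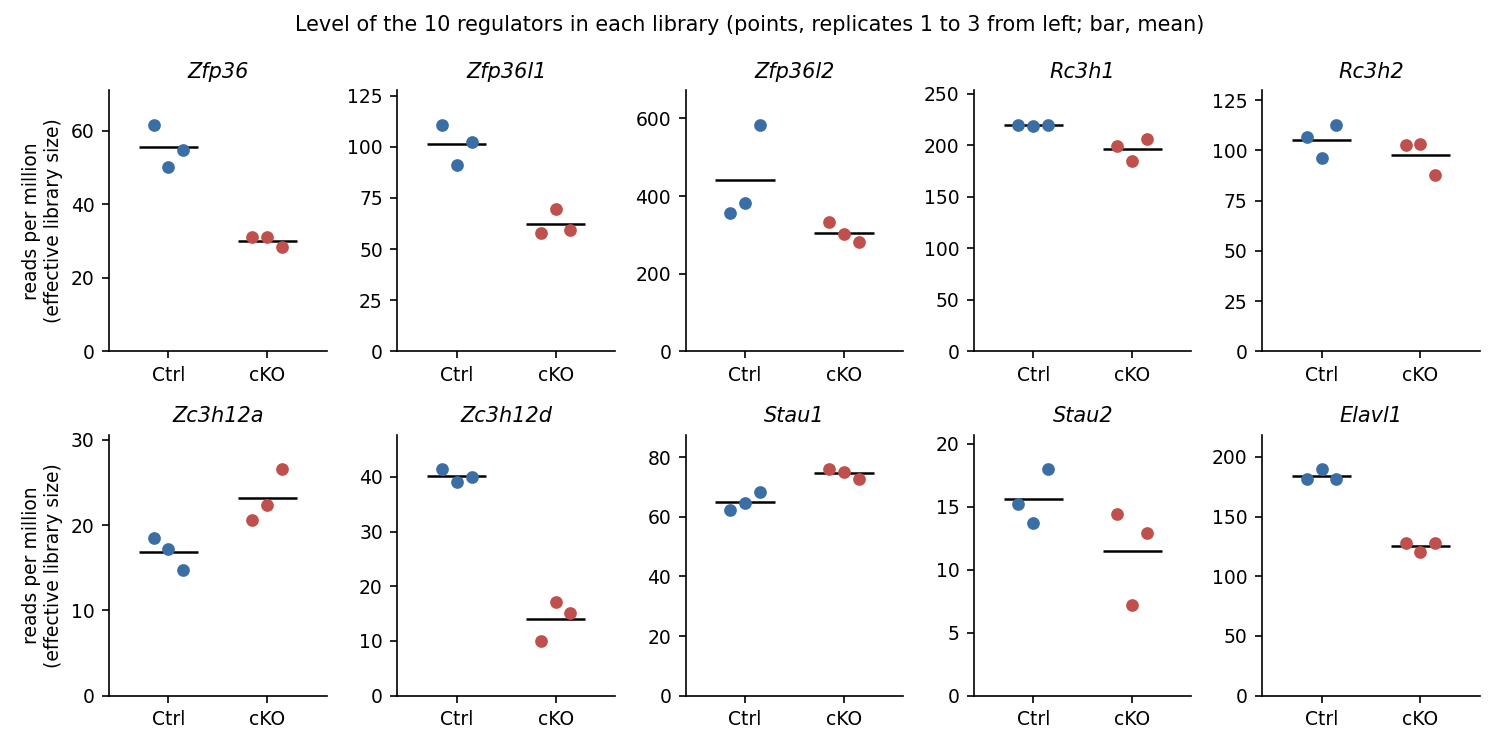
Normalised reads of each of the 10 regulators (vertical axes from 0, each with its own range) in the 3 Ctrl libraries (blue) and the 3 cKO-labelled libraries (red), with the group mean as a bar. *Zfp36*, *Zfp36l1*, *Zc3h12d* and *Elavl1* sit lower and *Zc3h12a* higher in cKO-labelled libraries, while *Rc3h2* and *Stau2* overlap and Ctrl replicate 3 is high for *Zfp36l2*.

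Each TTP gene had lower values in all 3 cKO-labelled libraries than in any Ctrl library, but *Zfp36l2* did not pass the test. *Zfp36*, which encodes TTP itself (Entrez ID 22695, chromosome 7, 28376784 to 28379228), held 61.7, 50.1 and 54.8 normalised reads in Ctrl replicates 1 to 3 and 31.1, 31.0 and 28.3 in cKO-labelled replicates 1 to 3. Every cKO-labelled library lay below every Ctrl library, and the mean fell by 45.7%, from 55.5 ± 5.84 to 30.1 ± 1.58 (SD, n = 3; log2 fold change -0.86, SE 0.10, limma adjusted p = 1.42e-06).

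*Zfp36l1* (Entrez ID 12192, chromosome 12, 80107760 to 80113013) held 111, 91.3 and 102 normalised reads in Ctrl and 57.8, 69.7 and 59.3 in cKO-labelled libraries. The groups did not overlap here either, and the mean was 1.63-fold lower (log2 fold change -0.69, SE 0.096, limma adjusted p = 7.9e-06). *Zfp36l2* (Entrez ID 12193, chromosome 17, 84183924 to 84187947) held 355, 383 and 584 normalised reads in Ctrl and 334, 302 and 283 in cKO-labelled libraries. The 3 cKO-labelled libraries lay below the Ctrl ones, but Ctrl replicate 3 was far above the others, and the difference did not pass the test (log2 fold change -0.49, SE 0.20, limma adjusted p = 0.0848). Without Ctrl replicate 3 the log2 fold change of *Zfp36l2* was smaller, -0.27, and passed (adjusted p = 0.00864); it also passed with voom weights on recovered reads (log2 fold change -0.50, adjusted p = 0.0067).

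*Zfp36* is also an immediate early gene, switched on within minutes by growth factors or handling, so the other genes of that kind were read beside it. Of 19 listed, 15 had a row, and 7 (46.7%) passed as higher and 2 (13.3%) as lower (median log2 fold change -0.05). Over all genes the shares were 27.7% and 25.0%. The number lower was 5 without Ctrl replicate 2 or 3 and 1 without cKO replicate 2 or 3. *Klf4* fell (25.3, 19.3 and 17.9 against 5.51, 5.27 and 4.59 normalised reads; log2 fold change -1.82, adjusted p = 3.38e-08), whereas *Fosl2* rose (log2 fold change 1.12, adjusted p = 0.000318), as did *Nr4a1* (1.0, adjusted p = 0.000409) and *Jun* (0.65, adjusted p = 0.00697). The genes that share the early response with *Zfp36* therefore did not move in 1 direction, and their part in the level of *Zfp36* was not tested.

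The Roquin genes moved little. *Rc3h1* (Entrez ID 381305, chromosome 1, 160906411 to 160974976) held 220, 219 and 220 normalised reads in Ctrl and 200, 185 and 206 in cKO-labelled libraries. The Ctrl libraries were nearly equal and all above the cKO-labelled ones, yet the difference of 10.4% in the mean did not pass the test (log2 fold change -0.16, SE 0.073, limma adjusted p = 0.0767). *Rc3h2* (Entrez ID 319817, chromosome 2, 37368861 to 37424370) held 106, 96.2 and 113 normalised reads in Ctrl and 103, 103 and 88.0 in cKO-labelled libraries, so the groups overlapped (log2 fold change -0.10, SE 0.090, adjusted p = 0.35). *Rc3h1* passed as lower with each library centred on its median (-0.27, adjusted p = 0.00441), and both signs turned when libraries were scaled to total reads (0.04 for *Rc3h1* and 0.10 for *Rc3h2*), a scaling that moved the median of all genes from 0.01 to 0.19. The small nucleolar RNA gene *Snord90* lies within the limits of *Rc3h2*.

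The Regnase genes went in opposite directions. *Zc3h12a*, encoding Regnase-1 (Entrez ID 230738, chromosome 4, 125118414 to 125127881), held 18.4, 17.2 and 14.7 normalised reads in Ctrl and 20.6, 22.3 and 26.6 in cKO-labelled libraries. All cKO-labelled libraries were above all Ctrl libraries, and the mean rose by 38.0% (log2 fold change 0.44, SE 0.13, limma adjusted p = 0.00999). The call needed cKO replicate 3: without it the log2 fold change was 0.34 and the adjusted p 0.0782. Regnase-1 is also made in myeloid cells; of their 13 markers 5 passed as higher and 1 as lower in the same libraries, and their part in the result was not tested.

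*Zc3h12d*, encoding Regnase-4, a relative made mostly in lymphocytes (Entrez ID 237256, chromosome 10, 7832323 to 7870397), had the largest change of the 10. It held 41.5, 39.0 and 40.0 normalised reads in Ctrl and 9.90, 17.1 and 15.1 in cKO-labelled libraries, which corresponds to between 386 and 402 reads and between 101 and 189 reads. The mean was 2.86-fold lower (log2 fold change -1.48, SE 0.15, limma adjusted p = 2.45e-07), and over the 18 alternative settings the log2 fold change ranged from -1.63 to -1.27. The microRNA gene *Mir5104* and a small nucleolar RNA gene lie within its limits. Of the other Regnase relatives, *Zc3h12c* held 7.70, 8.13 and 6.80 normalised reads in Ctrl and 11.3, 9.42 and 12.3 in cKO-labelled libraries and rose (log2 fold change 0.48, adjusted p = 0.0179), and *Zc3h12b* was low and overlapped (log2 fold change -0.03, adjusted p = 0.922). These relatives were looked at after their values were seen.

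The Staufen genes did not pass the test. *Stau1* (Entrez ID 20853, chromosome 2, 166947549 to 166996315) held 62.2, 64.6 and 68.4 normalised reads in Ctrl and 76.1, 75.1 and 72.8 in cKO-labelled libraries. The cKO-labelled libraries were all above the Ctrl ones by a small margin (log2 fold change 0.20, SE 0.084, limma adjusted p = 0.0579). *Stau2* (Entrez ID 29819, chromosome 1, 16228803 to 16520332) held 15.2, 13.7 and 18 normalised reads in Ctrl and 14.4, 7.17 and 12.9 in cKO-labelled libraries. cKO replicate 2 was the low value, and cKO replicate 1 lay within the Ctrl range (log2 fold change -0.46, SE 0.20, adjusted p = 0.0701). Without cKO replicate 1 the value for *Stau2* was -0.63 (adjusted p = 0.021), without cKO replicate 2 it was -0.18 (adjusted p = 0.398), and *Stau1* passed without Ctrl replicate 3 (0.23, adjusted p = 0.0406). Long noncoding RNA genes lie within the limits of *Stau2*.

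*Elavl1*, encoding HuR (Entrez ID 15568, chromosome 8, 4284781 to 4325140), held 182, 190 and 181 normalised reads in Ctrl and 128, 121 and 128 in cKO-labelled libraries. The lowest Ctrl library was well above the highest cKO-labelled one, and the mean fell by 32.0% (log2 fold change -0.55, SE 0.074, limma adjusted p = 5.47e-06). The neuronal relatives *Elavl2*, *Elavl3* and *Elavl4* and the TTP relative *Zfp36l3* had no row in the table. The call of *Elavl1*, like those of *Zfp36*, *Zfp36l1* and *Zc3h12d*, held in all 18 alternative settings.

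**Figure D2:**
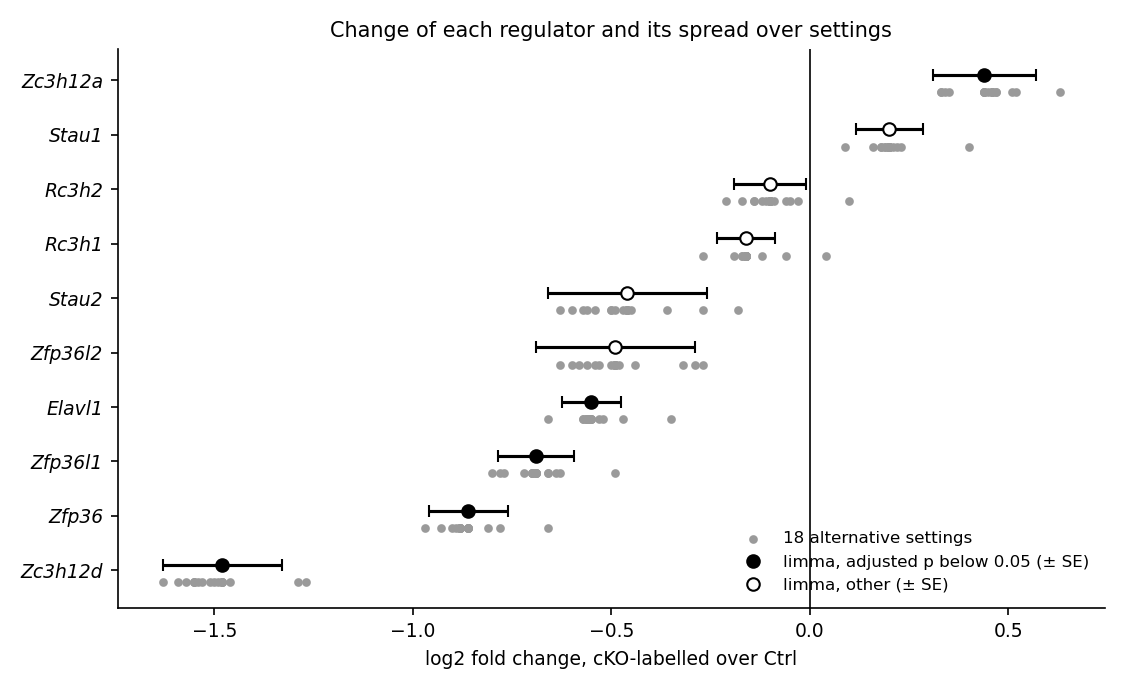
Log2 fold change of each regulator, cKO-labelled over Ctrl (horizontal axis), with its SE from limma (black; filled where the adjusted p is below 0.05) and its value under 18 alternative settings (grey). Values run from -1.48 for *Zc3h12d* to 0.44 for *Zc3h12a*, and the grey points of *Rc3h1* and *Rc3h2* cross 0.

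Levels of different genes were compared per length, as normalised reads per kilobase of the longest coding transcript linked to RefSeq, counting the bases within the RefSeq limits of the gene. In Ctrl cells *Zfp36l2* was the most abundant of the 10, at 125 ± 35.4 (SD, n = 3) per kilobase. It was followed by *Zfp36l1* at 34.0 ± 3.29, *Elavl1* at 33.7 ± 0.91 and *Zfp36* at 31.4 ± 3.31, whose libraries overlapped each other. Below them *Rc3h1* (19.96 ± 0.0684), *Stau1* (18.2 ± 0.871), *Rc3h2* (11.8 ± 0.937) and *Zc3h12d* (9.82 ± 0.30) were each separate from the next, and *Zc3h12a* (6.10 ± 0.682) and *Stau2* (5.40 ± 0.757) overlapped.

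In cKO-labelled libraries *Zfp36l2* was again first, at 86.8 ± 7.38 per kilobase, and *Zc3h12d* moved from the eighth place to the tenth, at 3.43 ± 0.907, where it overlapped *Stau2* at 3.96 ± 1.32. By its mean *Zfp36* moved from the fourth place to the sixth and *Stau1*, at 20.9 ± 0.469, from the sixth to the third, but in these libraries *Stau1* overlapped *Zfp36l1* and *Zfp36* overlapped *Rc3h1*. With all exons of a gene merged, as an alternative length, *Zfp36* in Ctrl was 15.99 and *Elavl1* 17.8 per kilobase, so that *Rc3h1*, at 19.4, ranked above both. This merge counts bases outside the RefSeq limits of *Zfp36*; with those left out, *Zfp36* was 22.7 and lay above *Rc3h1*. With all exons merged *Stau1* was the fourth in cKO-labelled libraries, *Zfp36* went from the fifth place in Ctrl to the sixth, and *Zc3h12d* went from the seventh to the ninth, above *Stau2* (3.43 against 1.70). *Zfp36l2* and *Zfp36l1* kept the first and second place in Ctrl with either length.

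**Figure D3:**
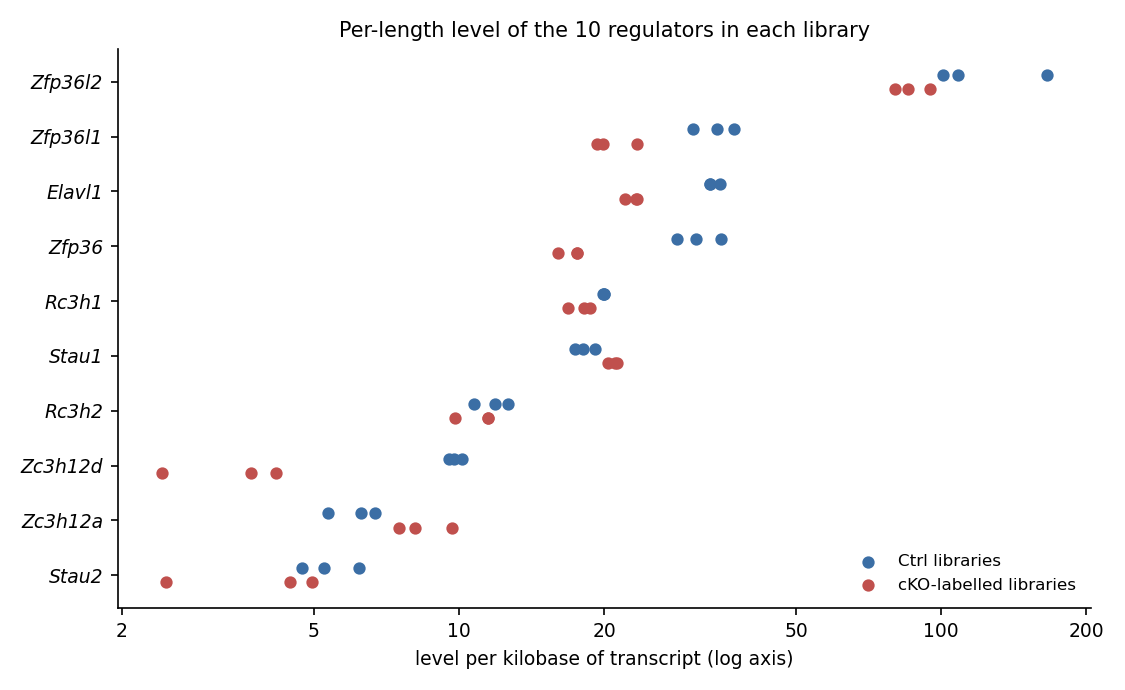
Level per kilobase of transcript (horizontal log axis) of the 10 regulators in each Ctrl library (blue) and each cKO-labelled library (red), ordered by the Ctrl mean. *Zfp36l2* lies above all others in every library, and *Zc3h12d* falls from between *Rc3h2* and *Zc3h12a* to the low end beside *Stau2*.

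Ratios within a family do not depend on how libraries are scaled. They are ratios of reads, not corrected for length, so they are compared between libraries and do not say which gene of a pair is more abundant. The log2 ratio of *Zc3h12a* to *Zc3h12d* reads was -1.17, -1.18 and -1.44 in Ctrl and 1.06, 0.39 and 0.81 in cKO-labelled libraries. The cKO-labelled libraries were all above the Ctrl ones, a difference of 2.02 in the means. *Zc3h12a* made up 38.2% ± 2.47 of the per-length Regnase sum in Ctrl and 71.3% ± 4.88 (SD, n = 3) in cKO-labelled libraries. The summed per-length level of *Zc3h12a* and *Zc3h12d* was 15.9 ± 0.86 in Ctrl and 11.8 ± 1.76 in cKO-labelled libraries, and the groups did not overlap.

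The make-up of the TTP family did not separate the groups. *Zfp36l2* took 58.3%, 64.8% and 71.7% of the per-length sum in Ctrl and 71.9%, 67.6% and 69.1% in cKO-labelled libraries, so the groups overlapped. The family sum was 173, 168 and 231 per kilobase in Ctrl and 132, 126 and 116 in cKO-labelled libraries, with no overlap. The log2 ratio of *Zfp36* to *Zfp36l1* reads, the pair that both fell, was -0.87 ± 0.027 in Ctrl and -1.04 ± 0.14 (SD, n = 3) in cKO-labelled libraries and overlapped.

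The log2 ratio of *Rc3h1* to *Rc3h2* reads was 1.07 ± 0.11 in Ctrl and 1.01 ± 0.20 in cKO-labelled libraries, which overlapped. The log2 ratio of *Stau1* to *Stau2* reads was 2.03, 2.24 and 1.92 in Ctrl and 2.40, 3.39 and 2.49 in cKO-labelled libraries. Here the groups did not overlap, although neither gene passed the test alone, and the difference of 0.70 was 0.38 without cKO replicate 2. Lack of overlap, here and for the family sums above, is common in these libraries. Of all single genes, 30.9% were higher and 28.0% lower without overlap. The longest exact run shared by the transcripts of 2 members of a family was 32 bases, between *Zfp36l1* and *Zfp36l2*.

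The proteins through which TTP and Roquin act are the CCR4-NOT deadenylase, the PAN2-PAN3 deadenylase and the decapping machinery. All 30 listed genes had a row, and 5 passed as higher (16.7%) and 8 as lower (26.7%), with a median log2 fold change of -0.10. With libraries scaled to total reads, 7 were higher and 4 lower, and with median centring 15 were lower. *Btg1*, an adaptor of the CCR4-NOT deadenylase, fell from 152, 118 and 147 to 71.3, 68.7 and 75.4 normalised reads (log2 fold change -0.94, adjusted p = 1.59e-07). *Pabpc1*, the main poly(A)-binding protein, fell likewise (log2 fold change -0.91, adjusted p = 4.35e-09). The decapping scaffold *Patl1* rose from 93.5, 99.3 and 100.3 to 184, 168 and 179 (log2 fold change 0.85, adjusted p = 4.02e-08), and *Pan3* rose too (0.80, adjusted p = 3.95e-08). *Cnot1*, the scaffold of CCR4-NOT that TTP and Roquin contact directly and that was picked after its values were seen, was lower by a small amount (log2 fold change -0.20, adjusted p = 0.0162).

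Kinases, phosphatases, proteases and 14-3-3 proteins that act on the members were read next. All 22 listed genes had a row, and 3 passed as higher and 11 as lower, with a median log2 fold change of -0.26. *Btrc*, the ubiquitin ligase subunit that marks phosphorylated Regnase-1 for degradation, fell from 180, 170 and 178 to 44.8, 52.4 and 49.5 normalised reads (log2 fold change -1.83, adjusted p = 5.07e-12). The 14-3-3 gene *Ywhaz*, whose product holds phosphorylated TTP in an inactive form, fell too (log2 fold change -0.79, adjusted p = 1.44e-07). *Ikbkb*, the kinase that phosphorylates Regnase-1, rose (log2 fold change 0.65, adjusted p = 1.23e-06). *Malt1*, the protease that cleaves Regnase and Roquin proteins, was named after its value was seen and gave 0.08 (adjusted p = 0.46). With libraries scaled to total reads the counts of this list were 6 higher and 5 lower.

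Of 49 paralogs and other proteins that bind 3′ UTR elements, 42 had a row. Of these 9 (21.4%) passed as higher and 15 (35.7%) as lower (median log2 fold change -0.09). *Nynrin*, which shares the nuclease fold of the Regnases, rose from 2.60, 4.19 and 3.72 to 10.1, 11.7 and 10.3 normalised reads (log2 fold change 1.39, adjusted p = 5.54e-06). *Fmr1*, an RNA-binding repressor of translation, fell (log2 fold change -0.79, adjusted p = 7.88e-08). *Ybx1* and *Hnrnpab* also passed as lower (log2 fold changes -0.93 and -0.77, adjusted p = 0.0014 and 0.0364), with Ctrl replicate 3 the highest library for each; *Hnrnpab* lost the call in 5 of 18 alternative settings. With libraries scaled to total reads, 16 of this list were higher and 9 lower.

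Reported targets of the members did not follow a single direction. Of 31 TTP family targets 18 had a row, 4 (22.2%) passed as higher and 5 (27.8%) as lower, and the median log2 fold change was -0.11. The cytokine genes *Il2*, *Il6*, *Il10*, *Il1b* and *Csf2* were among those with no row. *Tnf* was low in Ctrl, at 0.478, 0.657 and 1.14 normalised reads, and was 4.05, 6.54 and 4.85 in cKO-labelled libraries. It is 1 of the 4 counted as higher, but it has a row only through the cKO-labelled libraries, since only 2 Ctrl libraries exceeded 0.5, so its values are given with no test. *Lif*, a cytokine gene, went from 0.690, 1.06 and 0.844 to 6.68, 6.63 and 8.22 (log2 fold change 2.13, adjusted p = 7.68e-08), and *Vegfa*, a growth factor gene, from 54.8, 59.4 and 70.9 to 118, 130 and 137 (1.05, adjusted p = 5.04e-08). *E2f1*, which drives entry into S phase and also carries AU-rich nonamers, fell from 90.2, 80.0 and 76.2 to 33.8, 35.8 and 32.2 (log2 fold change -1.25, adjusted p = 4.35e-09). With libraries scaled to total reads, 7 of these targets were higher and 5 lower, and with a minimum mean log2 value of 3, 1 was higher. *Tnf* is also made in myeloid cells, and the part of such cells, with the marker values given above, was not tested.

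Of 22 targets of Roquin and Regnase-1 11 had a row, 3 (27.3%) passed as higher and 4 (36.4%) as lower, and the median log2 fold change was 0.07. With a minimum mean log2 value of 3, 1 was higher and 3 lower. *Il2ra*, the IL-2 receptor alpha chain, fell from 13.4, 14.2 and 12.4 to 1.61, 1.76 and 1.64 normalised reads (log2 fold change -2.42, adjusted p = 2.96e-09). *Irf4*, a transcription factor of the pre-B transition, fell from 470, 473 and 456 to 128, 110 and 123 (log2 fold change -1.94, adjusted p = 5.97e-13), and *Tfrc*, the transferrin receptor, fell as well (-0.90, adjusted p = 7.49e-09). *Nfkbid*, which holds a pair of the UGU stem-loops shown above and was named for them, held 8.76, 8.34 and 6.80 in Ctrl and 14.3, 13.3 and 13.9 in cKO-labelled libraries (log2 fold change 0.73, adjusted p = 0.000567). *Tnf* stands on this list too, among the 3 counted as higher, with the same limit.

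Only 4 of 7 Staufen targets had a row, with *Jun* higher, as given above, and *Il7r* and *Arf1* lower (log2 fold changes -0.61 and -0.41, adjusted p = 6.53e-06 and 0.000215). *Arf1*, the first transcript described for this decay, held 190, 218 and 214 normalised reads in Ctrl and 151, 160 and 155 in cKO-labelled libraries. Of 17 HuR targets 4 (23.5%) passed as higher and 5 (29.4%) as lower, with a median log2 fold change of -0.13. With median centring 3 were higher and 8 lower. The cell cycle inhibitor *Cdkn1a* rose from 28.7, 24.9 and 21.5 to 64.1, 64.2 and 65.1 (log2 fold change 1.34, adjusted p = 8.86e-09), while *Actb* and *Ptma* fell (-0.78 and -0.73, adjusted p = 1.18e-07 and 2.04e-07).

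**Figure D4:**
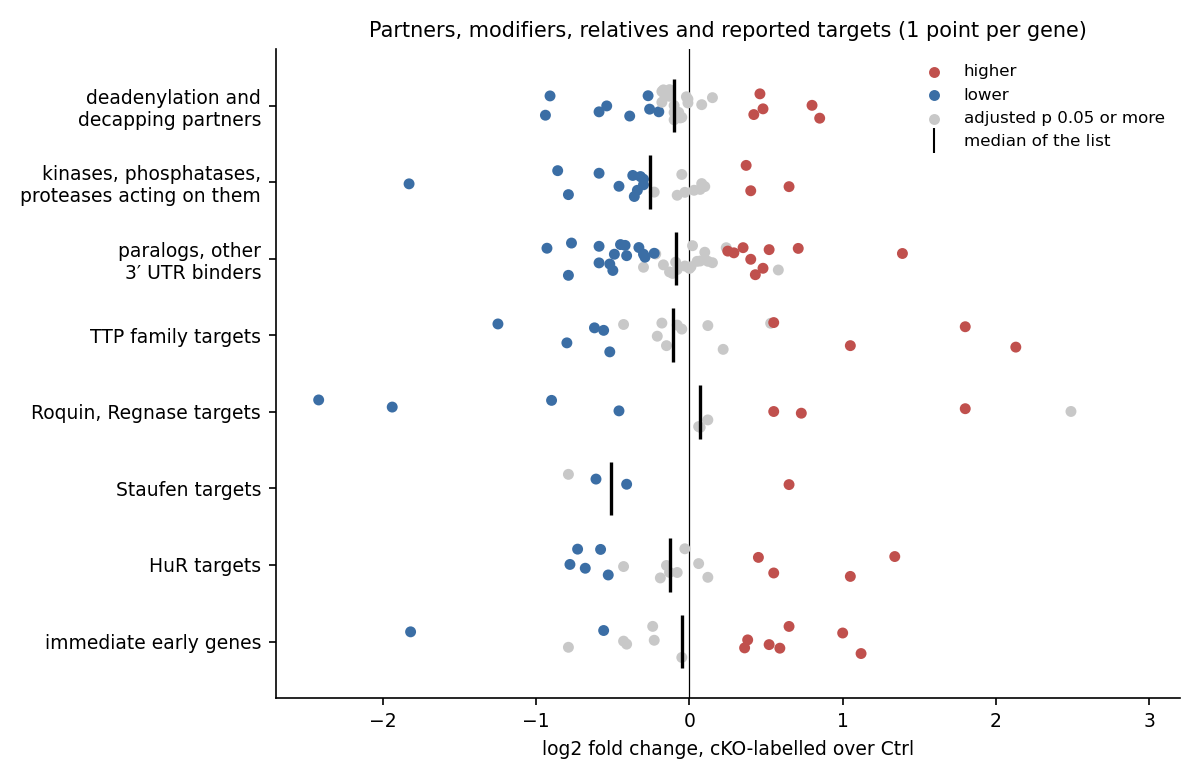
Log2 fold change, cKO-labelled over Ctrl (horizontal axis), of each gene of the lists of partners, modifiers, relatives, reported targets and immediate early genes (1 point per gene; red higher, blue lower, grey adjusted p of 0.05 or more; bar, list median). Medians lie between -0.51 and 0.07, and every list holds genes on both sides of 0.

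A last description set the members' motif content beside that of all other genes. Of 409 other genes with 3 or more AU-rich heptamers, 27.9% were higher and 24.9% lower, with a median log2 fold change of -0.01. Of 8548 genes with none, 29.5% were higher and 25.8% lower, with a median of 0.03. Genes with 1 or 2 heptamers lay at 0.01 and 0.04, so the shares hardly moved with the number of elements. The nonamer gave the same picture (30.6% higher and 25.7% lower of 865 genes), also among genes with 3′ UTRs over 1500 bases, where 30.9% of 589 with the nonamer and 29.8% of 3838 without it were higher. Of the members with 3 or more heptamers, *Zfp36*, *Zfp36l1* and *Elavl1*, with 3, 3 and 8 heptamers, lay at -0.86, -0.69 and -0.55, and *Zfp36l2*, with 3, at -0.49, below the quartiles of their class (-0.30 and 0.39), while *Rc3h2*, also with 3, lay within them at -0.10. For the UGU stem of at least 6 pairs there were 32 other genes, of which 13 (40.6%) were higher and 8 (25.0%) lower, with a median of 0.11. *Tnf*, with the limit given above, is 1 of the 13. Over all 11906 other genes with such a transcript the shares were 29.3% and 25.8%. Of all 299 other genes with UUCUGUGAA, whatever the stem, 25.1% were higher and 30.1% lower, with a median of -0.01.

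**Figure D5:**
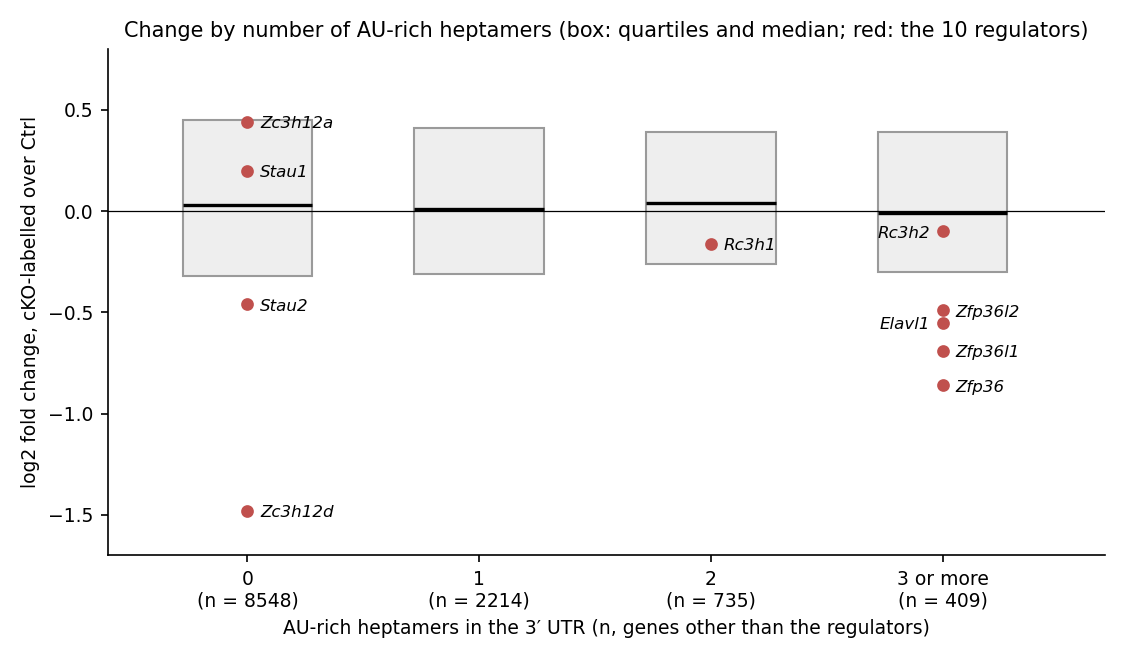
Log2 fold change, cKO-labelled over Ctrl (vertical axis), by the number of UAUUUAU heptamers in the 3′ UTR (horizontal axis); boxes give the quartiles and the bar the median of all other genes of the class, and red points are the 10 regulators. The boxes of the 4 classes nearly coincide, with medians between -0.01 and 0.04, and the TTP genes and *Elavl1* lie below the box of theirs.

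Among features that bear on nonsense-mediated decay, no member had an exon junction more than 50 bases past its stop codon in the transcript used (0.3% of genes had one). An isoform annotated as a target of nonsense-mediated decay existed for *Rc3h2*, *Stau1* and *Stau2* and for 29.4% of genes. An ATG in the 5′ UTR was found in 8 members, *Zfp36l1* and *Zfp36l2* being without it, and in 51.3% of genes. Of the members that passed, *Zc3h12a*, which rose, had 3 such ATGs, while *Zfp36* had 5, in a 5′ UTR that reaches past its RefSeq limits, *Elavl1* had 2, *Zc3h12d* had 1 and *Zfp36l1* had none.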

How the data were processed

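RNA-seq of 3 Ctrl and 3 cKO-labelled libraries of early LPre-B cells was used. Per the labels and the study's methods, the authors trimmed reads (cutadapt 4.0), aligned them to mm10 with HISAT2 (single end, unstranded), counted them per gene with featureCounts 2.0.1 and used limma 3.48.0. They deposited a linear signal per gene, which was found to be reads plus 0.5 per 1e6 of an effective library size; whole reads were recovered for 100% of values (tolerance 0.1 reads). All 13426 genes exceeded a signal of 0.5 in at least 3 libraries, so lower genes were left out before deposition. RefSeq (GRCm38) named 13008 of the Entrez IDs.

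Group differences were fitted here with limma 3.58.1 (R 4.3.3) on log2(signal + 1), with intensity trend, robust eBayes, no term but group, and p-values adjusted by Benjamini-Hochberg over all 13426 genes; an adjusted p below 0.05 was called. Values and SEs printed for single genes come from this fit unless a setting is named. The fit was also run on simulated counts with known changes in a small set of genes and a single dispersion. That setting is simpler than these data, so the run is no check of the calls here. Reads carry no molecular identifiers, so depth covers counting error only. Transcripts, UTRs and motifs came from GENCODE M21 (motifs searched on the transcript strand); transcript bases outside the RefSeq limits of a gene, as in *Zfp36*, were left out of its length. The members and gene lists were chosen with earlier results of these data known, the lists from general knowledge. Named genes were the members, *Upf1* and, per list, at most 4 called genes by largest absolute log2 fold change; other genes, markers of cell types among them, were picked after their values were seen. Some items that met this rule are not reported here. Alternatives were other scalings, pseudocounts, filters, voom, edgeR 4.0.16, DESeq2 1.42.0, a replicate block and leaving out each library. No protein or promoter sequence was used.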

Additional observations from a re-analysis of the deposited data

How the results depend on the processing

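With 3 libraries a group, leaving out 1 library leaves 2 in its group. Of the 5 members called, *Zfp36*, *Zfp36l1*, *Zc3h12d* and *Elavl1* kept their call and direction in all 18 alternatives, and *Zc3h12a* in 17. The number of members lower was 7 with each library centred on its median, which adds *Zfp36l2*, *Rc3h1* and *Stau2*. The number higher was 2, which adds *Stau1*, with quantile normalization, with scaling to total recovered reads and with a minimum mean log2 value of 3. With quantile normalization the number lower was 5, which adds *Stau2* (-0.6, adjusted p = 0.0244). When each library was left out in turn, between 0 and 2 members were higher and between 4 and 5 lower. Scaling to total recovered reads gave 1936 genes lower and 5172 higher over all genes, against 3351 and 3725, and moved their median log2 fold change to 0.19, while median centring moved it to -0.10; relative to 0.19, *Rc3h1* at 0.04 and *Rc3h2* at 0.10, whose signs were reversed there, lay below the median gene. *Upf1* was not called with median centring (0.20, adjusted p = 0.0645) or without trend and robust estimation (0.31, adjusted p = 0.0685). Of 288 list counts under alternatives, 269 stayed within 1.5 times, and no named gene outside the members changed direction. Whether libraries of the same replicate number form pairs cannot be told from 3 libraries a group. Deviations of same-numbered libraries correlated at 0.126, -0.063 and -0.079. With the replicate block 1 member was higher and 5 lower, *Stau2* being added (-0.46, adjusted p = 0.0295). Merging all exons lowered the Ctrl per-length levels of *Zfp36* (15.99), *Rc3h2* (5.36), *Stau1* (10.7), *Stau2* (2.32) and *Elavl1* (17.8) by over 1.5 times; limiting the merged exons of *Zfp36* to its RefSeq limits, an alternative added after the data were seen, gave 22.7.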
